A study of Homo sapiens with 6 samples.

Results

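RAS proteins are membrane-bound switches that are active with GTP bound and inactive with GDP bound. GTPase activators (GAPs) speed up the hydrolysis of GTP and switch RAS off, whereas exchange factors release GDP, let GTP bind and switch RAS on. In T cells the antigen receptor drives exchange by RASGRP1, which is recruited by diacylglycerol, and by SOS1 and SOS2, which the adaptor GRB2 brings to the membrane, and active RAS then starts the RAF, MEK and ERK kinase cascade.

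The genes described here are 7 GTPase activators, RASAL1, RASAL2, RASAL3, RASA1, RASA2, RASA3 and NF1, and 3 exchange factors, RASGRP1, SOS1 and SOS2, which make 10 of the 58735 genes counted. They were taken by symbol through GENCODE 29. The set was picked from families known to act on RAS after results of the comparison shown here had been seen, so its own fold changes and calls are a description and no test. RNA was sequenced in Jurkat, an established line of human leukaemic T cells that had been infected with a lentivirus carrying a short hairpin RNA. The hairpin was either directed against SATB1, a DNA-binding chromatin organiser of T cells (shSATB1, labelled SATB1 knockdown, 3 libraries), or a control hairpin (shCtrl, labelled control, 3 libraries). All libraries therefore come from 1 cell line with an integrated lentiviral vector, and 1 hairpin per group is described. The question is how transcripts differ once SATB1 is lowered. Nothing states that replicates were separate cultures or infections, so the spread between libraries may be technical.

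SATB1, the target, had 102, 100.2 and 104 CPM (read counts scaled to library size, with TMM factors) in shSATB1 libraries 1, 2 and 3, against 279, 259 and 259 CPM in shCtrl libraries 1, 2 and 3. All shSATB1 libraries were lower, with a log2 fold change of -1.38 (SE 0.0611, edgeR adjusted p = 1.11e-08, range over the alternatives 2.05e-102 to 1.35e-05). Reads in genes numbered between 26626539 and 28913623 per library, at which 3 reads equal 0.104 to 0.113 CPM. All 9 T cell markers examined were above 1 CPM in all 6 libraries. Of these, CD3D, CD247, CD2 and CD5 were lower in every shSATB1 library than in any shCtrl library. PTPRC was higher, at 805 CPM in shSATB1 and 503 CPM in shCtrl, and for the other T cell markers the groups overlapped. Of 12 markers of other blood and stromal cells, 9 stayed at or below 0.811 CPM (CD14) in every library, 3 of them at 0, while CD79A, COL1A1 and PECAM1 were above 1 CPM in every library. The summed level of those 12 markers was 164 to 171 CPM in shSATB1 and 247 to 255 CPM in shCtrl, and most of it was PECAM1, at 94.3 CPM in shSATB1 and 175 CPM in shCtrl. COL1A1 went the other way, at 20.8 CPM in shSATB1 and 15.5 CPM in shCtrl. For CD79A the groups overlapped, at 50.4 CPM in shSATB1 and 60.5 CPM in shCtrl. Whether these markers moved with the genes below for a shared reason was not tested. A gene was called where its adjusted p (edgeR quasi-likelihood test, Benjamini-Hochberg over 17520 tested genes) was under 0.05. That held for 30.9% of tested genes, with 14.3% rising and 16.6% falling. Rising genes numbered 2500, but 1662 without shCtrl replicate 3 and 1650 without shSATB1 replicate 3, and falling genes 2910, but 1817 without shSATB1 replicate 1 and 1852 without shSATB1 replicate 3. The fitted change also went with transcript length. For this only the better-expressed of the tested genes were put in 5 bins by merged exon length, of 2042 or 2043 genes each. The median change was -0.21 (log2) in the bin of shortest genes and 0.12 in that of the longest. Reads in no annotated exon made up 10.9% to 11.7% of reads in shSATB1 and 7.77% to 10.2% in shCtrl.

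Of the 10 genes, 9 had enough reads to be fitted, and these passed the filter in both groups. Of the 9, 6 were called as rising and 3 as falling, and in 8 of 9 the libraries of both groups did not overlap, against 45.1% of all tested genes. Because the set was picked with this comparison known, nothing is read from these shares. The median log2 fold change of the 9 was 0.32, beside 0.01 over all tested genes. The rises were RASAL3, RASA1, RASA2, NF1, SOS1 and SOS2, and the falls RASA3, RASAL1 and RASGRP1, so both activators and exchange factors went in both directions. In bulk RNA, fewer cells that express a gene and less RNA per cell cannot be told apart.

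**Figure D1:**
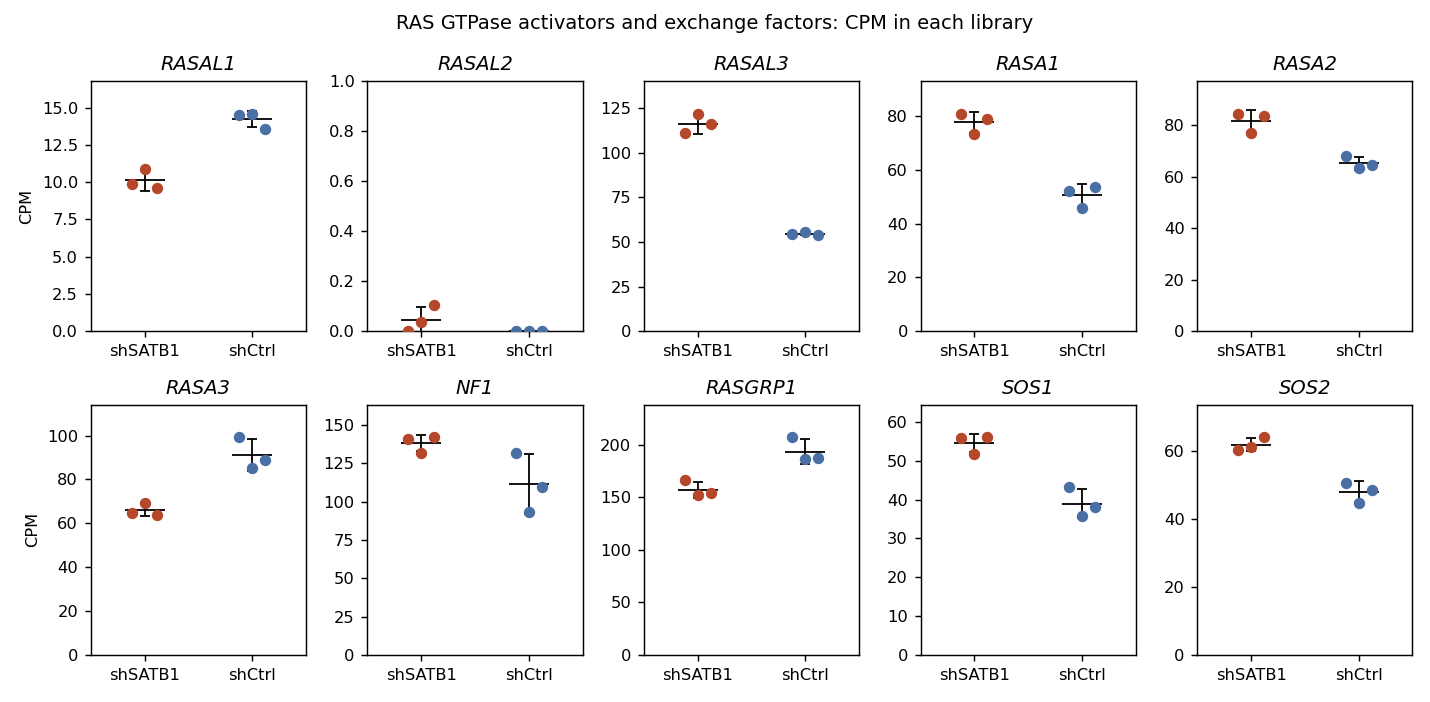
CPM (linear axis from 0) of each of the 10 genes in 3 shSATB1 libraries (left, red) and 3 shCtrl libraries (right, blue), with replicates 1 to 3 from left to right in each group and mean and SD in black. RASAL3 is at 111 to 122 CPM in shSATB1 against 54.2 to 55.4 CPM in shCtrl, the NF1 groups overlap, and RASAL2 is at or near 0 throughout.

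The annotated promoters of 3 genes are shown: RASAL3, which changed most, and RASGRP1 and RASA3, whose levels per kilobase of exon were above that of RASAL3 in shCtrl. Each run holds 300 bases that reach across the annotated start, most of them before it, 5′ to 3′ on the gene's own strand (RefSeq, GRCh38.p14). Capitals mark the E-box CACGTG, a motif bound by MYC and other basic helix-loop-helix factors. The places are chr19:15464495-15464794 for RASAL3, chr15:38564765-38565064 for RASGRP1 and chr13:114132574-114132873 for RASA3, all on the minus strand.
RASAL3: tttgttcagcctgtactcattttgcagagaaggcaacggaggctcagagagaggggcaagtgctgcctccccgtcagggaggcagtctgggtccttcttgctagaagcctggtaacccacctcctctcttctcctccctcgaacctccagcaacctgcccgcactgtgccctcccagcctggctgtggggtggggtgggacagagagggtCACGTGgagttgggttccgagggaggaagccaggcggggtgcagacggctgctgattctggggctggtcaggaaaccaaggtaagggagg
RASGRP1: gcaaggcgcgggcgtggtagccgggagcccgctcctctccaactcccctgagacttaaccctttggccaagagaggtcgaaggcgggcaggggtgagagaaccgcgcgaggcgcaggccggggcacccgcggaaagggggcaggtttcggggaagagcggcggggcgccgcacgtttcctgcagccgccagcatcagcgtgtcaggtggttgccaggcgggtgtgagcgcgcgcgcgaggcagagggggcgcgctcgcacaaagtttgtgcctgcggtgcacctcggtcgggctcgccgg
RASA3: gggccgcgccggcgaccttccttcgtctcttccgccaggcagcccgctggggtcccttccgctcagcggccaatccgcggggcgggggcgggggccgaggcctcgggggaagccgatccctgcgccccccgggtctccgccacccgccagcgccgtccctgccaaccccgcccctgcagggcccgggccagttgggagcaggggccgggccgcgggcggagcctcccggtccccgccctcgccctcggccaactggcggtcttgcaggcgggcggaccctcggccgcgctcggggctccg
The RASAL3 run holds an E-box that begins 40 bases before the annotated start, and 7.26% of 35116 RefSeq promoters hold this motif. No match was found in the other 2 runs to any of the motifs searched on both strands, namely the E-box, the ETS core CCGGAAG (10.3% of all promoters), the RUNX motif TGTGGT (13.1%), the cyclic AMP response element TGACGTCA (1.85%), the AP-1 motif TGANTCA (7.71%) and the TATA box TATAAA (11.5%). RefSeq promoters were matched for 8 of the 10 genes, with 11 windows in all. Among the others, NF1 had 1 ETS core and 1 cyclic AMP response element, SOS1 had 1 RUNX motif in 1 of its 2 windows, and RASAL2, RASA1 and SOS2 had no match. These runs are 61.7% (RASAL3), 71.3% (RASGRP1) and 80.7% (RASA3) G and C. A match describes the letters only, and which start Jurkat cells use was not measured.

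RASAL3 was the activator that changed most. It encodes a GTPase activator that is found in blood cells and is needed for survival of naive T cells in mice, and lies on chromosome 19 (15451624 to 15464571, minus strand, hg38). It had 111, 122 and 116 CPM in shSATB1 libraries 1, 2 and 3, against 54.5, 55.4 and 54.2 CPM in shCtrl libraries 1, 2 and 3, from 1468 to 3463 reads per library. Every shSATB1 library was above every shCtrl library, with group means of 116 ± 5.45 CPM in shSATB1 and 54.7 ± 0.640 CPM in shCtrl (SD, n = 3 each). The fold was 2.13, a log2 fold change of 1.09 (SE 0.0621), and 2.06% of tested genes changed by as much or more in either direction. Over all 16 other settings tried, the log2 fold change lay between 1.06 and 1.16.

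RASAL1 did not follow RASAL3, and RASAL2 had too few reads to tell. RASAL1 encodes an activator that responds to calcium (chromosome 12, 113098819 to 113136239, minus strand). It had 9.87, 10.9 and 9.58 CPM in shSATB1 libraries 1 to 3, against 14.5, 14.6 and 13.6 CPM in shCtrl libraries 1 to 3. All shSATB1 libraries were below all shCtrl libraries, by a log2 fold change of -0.49 (SE 0.0944). RASAL2, another GTPase activator (chromosome 1, 178094141 to 178484147, plus strand), had 0, 1 and 3 reads in shSATB1 libraries 1 to 3 and 0 reads in every shCtrl library. It was at or below 3 reads everywhere and was not fitted, so no fold is given.

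RASA1 and RASA2 rose, whereas RASA3 fell. RASA1 encodes p120 RasGAP, an activator whose SH2 domains bind phosphorylated receptors and adaptors (chromosome 5, 87267888 to 87391931, plus strand). It had 81.0, 73.4 and 79.1 CPM in shSATB1 libraries 1 to 3, against 52.3, 45.7 and 53.7 CPM in shCtrl libraries 1 to 3. The groups did not overlap, and the log2 fold change was 0.62 (SE 0.0740). Its exons overlap those of CCNH on the opposite strand over 14.7% of their length. CCNH had 35.8 ± 1.37 CPM in shSATB1 and 42.3 ± 2.95 CPM in shCtrl, the other direction, and the strand setting of the counting is not given in the sources used here.

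RASA2 encodes an activator of the GAP1 family whose loss in human T cells raises their response to antigen (chromosome 3, 141487047 to 141615342, plus strand). It had 84.6, 76.9 and 83.6 CPM in shSATB1 libraries 1 to 3, against 68.0, 63.3 and 64.6 CPM in shCtrl libraries 1 to 3. The shSATB1 libraries were all higher, by a log2 fold change of 0.32 (SE 0.0646). RASA3, of the same family, acts on RAP1 as well as RAS (chromosome 13, 113977783 to 114132611, minus strand). It had 64.8, 69.1 and 63.9 CPM in shSATB1 libraries 1 to 3, against 99.2, 85.2 and 89.1 CPM in shCtrl libraries 1 to 3. All shSATB1 libraries were lower here, with a log2 fold change of -0.47 (SE 0.0702).

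NF1 encodes neurofibromin, the large activator lost in neurofibromatosis (chromosome 17, 31094927 to 31382116, plus strand). It had 141, 132 and 142 CPM in shSATB1 libraries 1 to 3, against 132, 93.4 and 109.6 CPM in shCtrl libraries 1 to 3. The groups overlapped, since shCtrl library 1 reached the lowest shSATB1 library, and shCtrl varied far more (112 ± 19.6 CPM) than shSATB1 (138 ± 5.58 CPM; SD, n = 3 each). The log2 fold change was 0.31 (SE 0.0980) and was 0.04 with the trend of change on length removed and -0.13 with the share of reads in no exon as a covariate, both without a call. Within shCtrl, NF1 was highest in library 1, where that share was 10.2%, and lowest in library 2, where it was 7.77%. Leaving out shCtrl replicate 3 or any 1 shSATB1 replicate also ended the call, at 0.29 without shCtrl replicate 3 and 0.30, 0.35 and 0.29 without shSATB1 replicates 1, 2 and 3. The fold change itself moved most with the other shCtrl libraries, to 0.44 without shCtrl replicate 1 and 0.20 without shCtrl replicate 2, and was still called in both. The genome holds several NF1 pseudogenes that can share its reads, and EVI2A, which overlaps 0.56% of NF1 exon length on the opposite strand, was at 3.31 ± 0.575 CPM in shSATB1 and 3.17 ± 0.726 CPM in shCtrl.

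Among the exchange factors, RASGRP1 went the opposite way to SOS1 and SOS2. RASGRP1 (chromosome 15, 38488103 to 38565575, minus strand) had 166, 152 and 154 CPM in shSATB1 libraries 1 to 3, against 207, 186 and 187 CPM in shCtrl libraries 1 to 3. The groups did not overlap, with a log2 fold change of -0.30 (SE 0.0657), a fall to 157 ± 7.48 CPM in shSATB1, against 193 ± 11.8 CPM in shCtrl. SOS1 (chromosome 2, 38981396 to 39124345, minus strand) had 55.8, 51.8 and 56.0 CPM in shSATB1 libraries 1 to 3, against 43.1, 35.7 and 38.1 CPM in shCtrl libraries 1 to 3. SOS2 (chromosome 14, 50117120 to 50231558, minus strand) had 60.5, 61.3 and 64.1 CPM in shSATB1 libraries 1 to 3, against 50.8, 44.8 and 48.7 CPM in shCtrl libraries 1 to 3. For both SOS genes every shSATB1 library was above every shCtrl library, with log2 fold changes of 0.49 (SE 0.0777) for SOS1 and 0.37 (SE 0.0678) for SOS2.

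With the share of reads in no exon as a covariate, 2 rises (RASAL3 at 1.16 and RASA1 at 0.39, log2) and 2 falls (RASA3 at -0.61 and RASGRP1 at -0.44) were still called. SOS1, SOS2, RASA2 and RASAL1 kept their direction without a call, at 0.23, 0.21, 0.20 and -0.42. That share did not overlap between the groups, so what it and the hairpin contribute cannot be told apart. When only changes beyond 1.2-fold were tested for, RASAL3, RASA1, SOS1, RASA3 and RASAL1 were still called.

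**Figure D2:**
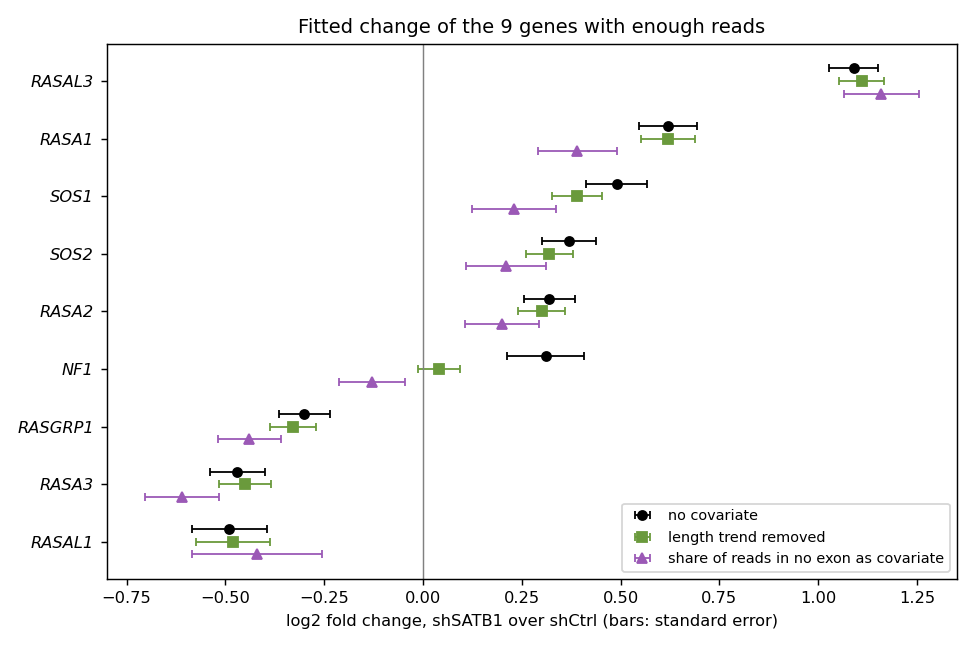
Fitted log2 fold change of shSATB1 over shCtrl (x axis; bars are standard errors) for the 9 fitted genes, with no covariate (black circles), with the length trend removed (green squares) and with the share of reads in no exon as a covariate (purple triangles). RASAL3 stays between 1.09 and 1.16, RASGRP1, RASA3 and RASAL1 stay below 0, and NF1 is at 0.31 with no covariate, 0.04 with the length trend removed and -0.13 with the covariate.

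Levels between genes are compared per kilobase of merged exons. In shSATB1 RASGRP1, at 25.8 ± 1.23 CPM per kb (SD, n = 3, as for all levels here), and RASAL3, at 24.9 ± 1.16 CPM per kb, overlapped at the top of the order. In shCtrl RASGRP1 stood alone at 31.7 ± 1.94 CPM per kb, RASA3 was next at 19.1 ± 1.51 CPM per kb and RASAL3 followed at 11.7 ± 0.137 CPM per kb, with no overlap between these neighbours. RASAL3 was thus the most abundant activator in shSATB1 and RASA3 in shCtrl.

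Below RASAL3 in shSATB1 came RASA1 at 14.9, RASA3 at 13.8 and RASA2 at 13.6 CPM per kb, whose ranges overlapped from each to the next. In shCtrl RASA2 at 10.9 and RASA1 at 9.66 CPM per kb did not overlap. SOS2 stood at 8.93 CPM per kb in shSATB1 and 6.93 CPM per kb in shCtrl, and SOS1 at 5.89 and 4.21 CPM per kb in the same order. NF1 stood at 5.10 CPM per kb in shSATB1 and 4.12 CPM per kb in shCtrl, where it overlapped SOS1. RASAL1 came last of the fitted genes, at 2.10 CPM per kb in shSATB1 and 2.96 CPM per kb in shCtrl.

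Several places in this order depend on the length used, among them that of NF1, whose merged exons span 27130 bases and whose longest coding transcript spans 12425 bases. Per kilobase of the longest coding transcript, NF1 stood at 11.1 CPM per kb in shSATB1 and 9.0 CPM per kb in shCtrl and overlapped SOS2 in both. RASA1, at 13.4 CPM per kb, was then above RASA2, at 11.6 CPM per kb, in shCtrl, with overlap. In shSATB1 the ranges of RASA1, RASA3 and RASA2 then stood apart from each to the next. On that scale RASAL3, at 35.4 ± 1.66 CPM per kb, was above RASGRP1, at 31.3 ± 1.49 CPM per kb, in shSATB1, without overlap, while in shCtrl RASGRP1 led at 38.5 ± 2.35 CPM per kb.

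**Figure D3:**
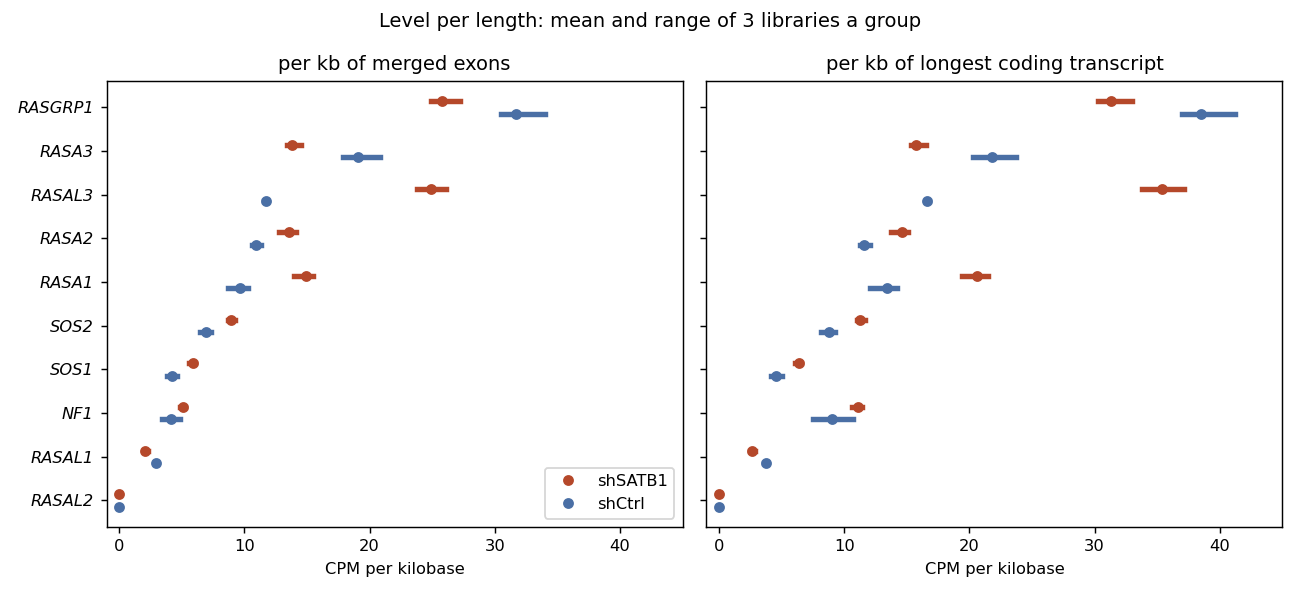
CPM per kilobase (x axis) of merged exons (left panel) and of the longest coding transcript (right panel) for the 10 genes, ordered by the shCtrl level per kb of merged exons. Points are means and lines the range of 3 libraries, shSATB1 in red above shCtrl in blue; RASAL3 joins RASGRP1 at the top in shSATB1.

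The summed level of the 7 activators was 74.2, 74.6 and 74.5 CPM per kb of merged exons in shSATB1 libraries 1 to 3, against 61.7, 55.5 and 58.2 CPM per kb in shCtrl libraries 1 to 3. For the 3 exchange factors the sums were 41.9, 39.4 and 40.5 CPM per kb in shSATB1 libraries 1 to 3, against 45.9, 40.8 and 41.8 CPM per kb in shCtrl libraries 1 to 3, and the groups overlapped. The ratio of activators to exchange factors was 1.77, 1.90 and 1.84 in shSATB1 and 1.34, 1.36 and 1.39 in shCtrl. RASAL3 made up 32.0% to 35% of the activator sum in shSATB1 and 18.9% to 21.3% in shCtrl, and RASA3 made up 18.0% to 19.5% in shSATB1 and 32.1% to 33.7% in shCtrl. RASGRP1 made up 62.2% to 64.8% of the exchange factor sum in shSATB1 and 73.4% to 74.7% in shCtrl. These sums follow from the members chosen, describe transcripts and not enzyme activity, and carry no test.

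By Pearson correlation of log2 CPM over the 6 libraries, the genes most like RASAL3 among 12827 genes of at least 2 CPM were JUN (r = 0.9997), DOK2 (r = 0.9981), S1PR1 (r = 0.9979), ITGB2-AS1 (r = 0.9978) and LCP2 (r = 0.9977). With 6 libraries in 2 groups, such values mostly restate the difference between the groups, and 558 genes exceeded r = 0.95.

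Of 6 tested RAS and RAP GTPases, on some of which these enzymes act, 1 rose and 1 fell, so 33.3% were called, near the 30.9% of all tested genes, and the median log2 fold change was -0.09. NRAS had 154, 148 and 160.5 CPM in shSATB1 libraries 1 to 3, against 78.8, 86.8 and 84.5 CPM in shCtrl libraries 1 to 3 (log2 fold change 0.89, SE 0.0637, edgeR adjusted p = 8.84e-07). HRAS had 13.8, 15.5 and 13.9 CPM in shSATB1, against 20.8, 24.7 and 21.6 CPM in shCtrl (log2 fold change -0.64, SE 0.0927, edgeR adjusted p = 0.000214). NRAS was thus higher and HRAS lower in every shSATB1 library. The HRAS call was lost with the covariate, at -0.37.

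Other genes that act on RAS were looked up by role. Of 2 tested activators outside the set, 1 fell and none rose. DAB2IP, which also acts as a tumour suppressor, fell to 25.8 ± 0.270 CPM in shSATB1, against 33.2 ± 2.21 CPM in shCtrl (edgeR adjusted p = 0.00243). The other, RASA4, shares 32.1% of its exon length with AC105052.1 and did not pass (edgeR adjusted p = 0.196). Of 4 tested exchange factors outside the set, RASGRP3, a diacylglycerol-binding relative of RASGRP1 known from B cells, rose to 7.25 ± 0.193 CPM in shSATB1, against 4.57 ± 0.338 CPM in shCtrl (edgeR adjusted p = 0.00109), a call lost with the covariate at 0.64. RASGRP2, an exchange factor for RAP1, was at 87.7 ± 1.96 CPM in shSATB1 and 78.3 ± 2.10 CPM in shCtrl and did not pass (edgeR adjusted p = 0.0506).

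Genes grouped with NF1 and RASA1 were tested next, and some of them encode proteins that recruit these activators. Of these 8 genes, 3 rose and 1 fell, with a median log2 fold change of 0.09. DOK2, an adaptor that binds RASA1 and dampens receptor signalling, rose to 76.4 ± 3.56 CPM in shSATB1, against 39.4 ± 0.762 CPM in shCtrl (edgeR adjusted p = 4.82e-07). SPRED1, which brings NF1 to the membrane, rose to 32.9 ± 2.44 CPM in shSATB1, against 22.4 ± 0.779 CPM in shCtrl (edgeR adjusted p = 0.000197), and its relative SPRED3 to 6.42 ± 0.309 CPM in shSATB1, against 3.96 ± 0.552 CPM in shCtrl (edgeR adjusted p = 0.00194). The SPRED3 call was lost with the covariate (0.42). G3BP1, named for binding RASA1, fell to 367 ± 10.2 CPM in shSATB1, against 416 ± 2.93 CPM in shCtrl (edgeR adjusted p = 0.0291), a call lost without shCtrl replicate 3 (log2 fold change -0.19) and without shSATB1 replicates 1, 2 or 3 (-0.17, -0.15 and -0.19). Of 9 genes for the lipid tails and transport of RAS, 1 rose and 1 fell (22.2% called): GOLGA7 at 78.2 ± 3.79 CPM in shSATB1 and 65.6 ± 3.67 CPM in shCtrl (edgeR adjusted p = 0.0106) and its partner in RAS palmitoylation ZDHHC9 at 31.2 ± 1.46 CPM in shSATB1 and 36.3 ± 1.01 CPM in shCtrl (edgeR adjusted p = 0.0302). The first lost its call without shSATB1 replicate 3 (log2 fold change 0.22) and the second without shCtrl replicate 3 (-0.20), without shSATB1 replicates 1 or 3 (-0.19 each) and with the covariate (-0.17).

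Between the receptor and the exchange factors, 5 of 14 tested genes rose and 3 fell (median log2 fold change -0.01). The share called was 57.1%, against 30.9% of all tested genes. The adaptor genes LCP2 and LAT rose to 161 ± 1.64 CPM in shSATB1, against 109 ± 1.35 CPM in shCtrl (edgeR adjusted p = 1.26e-05), and to 13.5 ± 1.18 CPM in shSATB1, against 9.12 ± 0.426 CPM in shCtrl (edgeR adjusted p = 0.000949). Of LAT exon length, 47.7% is shared with AC109460.3. CBL, a ubiquitin ligase that ends receptor signalling, was at 248 ± 9.90 CPM in shSATB1 and 192 ± 36.5 CPM in shCtrl (edgeR adjusted p = 0.0155). Its call was lost without shCtrl replicate 3 (log2 fold change 0.36) and without shSATB1 replicates 1 or 3 (0.35 and 0.37), and its direction turned with the covariate (-0.11). The adaptor gene GAB2 fell to 9.74 ± 0.426 CPM in shSATB1, against 13.6 ± 2.44 CPM in shCtrl (edgeR adjusted p = 0.00857). Without shCtrl replicate 3, shSATB1 replicate 1 or shSATB1 replicate 3, 3 genes of this list rose and 1 fell, and with the covariate 3 rose and 3 fell. GRB2, which carries SOS1 and SOS2 to the receptor, was at 244 ± 2.35 CPM in shSATB1 and 249 ± 8.49 CPM in shCtrl and did not pass (edgeR adjusted p = 0.739).

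None of the 6 diacylglycerol kinases, which remove the lipid that recruits RASGRP1, passed in the edgeR test, 2 of them had an unadjusted p under 0.05, and DESeq2 called 1 (DGKH) and limma-voom 0. Rises numbered 1 each with upper quartile scaling, no filter, a filter of 1 CPM, and without shCtrl replicate 1 or shCtrl replicate 2, and 2 with the replicate number as a block. With the length trend removed 1 of them fell, and with the covariate 1 fell, DGKH at -0.31, against 0.34 without it. DGKA was at 192 ± 8.19 CPM in shSATB1 and 172 ± 5.24 CPM in shCtrl (edgeR adjusted p = 0.0607), and DGKZ at 252 ± 7.08 CPM in shSATB1 and 255 ± 7.01 CPM in shCtrl (edgeR adjusted p = 0.855).

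Below RAS, 1 of 9 tested genes of the RAF, MEK and ERK cascade rose and 1 fell (22.2% called). KSR1 and KSR2 were called as falling only with the covariate, at log2 fold changes of -0.41 and -0.48, against 0.05 and 0.16 without it. KSR2 was also called in another setting, and its log2 fold change reached 0.37 over the settings, so its direction depended on the setting. BRAF, a RAF kinase, rose to 61.7 ± 2.52 CPM in shSATB1, against 42.9 ± 4.50 CPM in shCtrl (edgeR adjusted p = 0.000286), a call lost with the covariate at 0.24. MAPK3, which encodes ERK1, fell to 91.0 ± 2.40 CPM in shSATB1, against 103 ± 3.45 CPM in shCtrl (edgeR adjusted p = 0.0355). MAPK3 lost its call without shCtrl replicate 3 (log2 fold change -0.17) and without shSATB1 replicates 1, 2 or 3 (-0.15, -0.19 and -0.18), with no filter on low counts (-0.19), with the length trend removed (-0.12) and with the covariate (-0.10). Of 12 other RAS effectors 4 rose and none fell (33.3% called, median log2 fold change 0.22). TIAM1, an exchange factor for RAC, was at 67.9 ± 1.75 CPM in shSATB1 and 50.4 ± 6.43 CPM in shCtrl (edgeR adjusted p = 0.00168). The other rises were PI3-kinase genes: PIK3CD at 76.7 ± 4.0 CPM in shSATB1 and 63.4 ± 3.13 CPM in shCtrl, PIK3CA at 74.5 ± 2.34 CPM in shSATB1 and 62.4 ± 4.0 CPM in shCtrl, and PIK3CB at 50.7 ± 3.22 CPM in shSATB1 and 42.6 ± 1.51 CPM in shCtrl. All 4 calls were lost with the covariate, at 0.11, 0.25, 0.09 and 0.16, and 1 other gene of the list then fell. PIK3CA also lost its call without shCtrl replicate 3 or shSATB1 replicate 3 (0.24 each), and PIK3CB without shCtrl replicate 3 (0.23) and without shSATB1 replicates 1 or 3 (0.26 and 0.21). KCNMB3 overlaps 35.8% of PIK3CA exon length on the opposite strand, and the strand setting of the counting is not given. Of 12 tested genes induced by ERK, 33.3% were called, near the 30.9% of all tested genes. Of the 12, 4 rose (SPRY4, FOS, ETV5 and EGR1, with log2 fold changes of 1.17, 1.05, 0.71 and 0.40) and none fell. Their levels were low: means in shSATB1 were 3.64, 1.72, 8.54 and 9.44 CPM in that order. In shCtrl they were 1.61, 0.827, 5.23 and 7.15 CPM. SPRY4 had 42 to 112 reads per library and FOS 16 to 61. FOS and EGR1 lost their calls without shSATB1 replicate 2 (log2 fold changes 0.87 and 0.38), and ETV5 and EGR1 with the covariate (0.60 and 0.57). Of the 4 rises, only SPRY4 was thus called in both cases. FOS and EGR1 were also not called beyond a 1.2-fold change. Over all these lists, 20 of 82 tested genes rose and 8 fell, so 34.1% were called, near the 30.9% of all tested genes. By list, the share called lay between 0% for the diacylglycerol kinases and 57.1% for the genes between receptor and exchange factors. The falls numbered 3 without shCtrl replicate 3, shSATB1 replicate 1 or shSATB1 replicate 3, and 5 without shSATB1 replicate 2. Beyond a 1.2-fold change, 10 rises and 1 fall (HRAS) were still called. With the covariate, 9 rises and 9 falls were called.

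**Figure D4:**
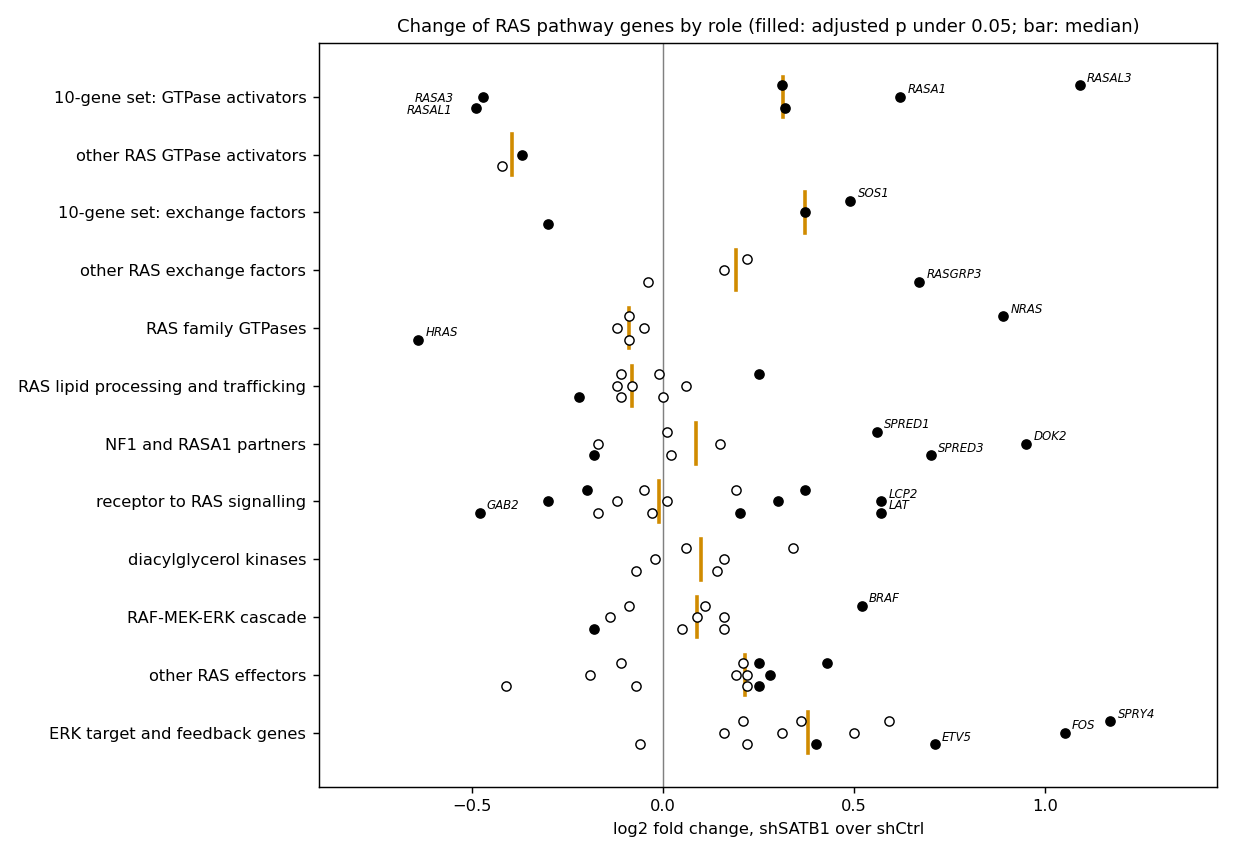
Fitted log2 fold change of shSATB1 over shCtrl for the tested genes of each role (filled points have an edgeR adjusted p under 0.05, open points do not, and the bar is the median of the role). The ERK-induced genes have a median of 0.38 with 4 of 12 points filled, and the diacylglycerol kinases one of 0.10 with no filled point.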

How the data were processed

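The deposited values are whole-number read counts per gene, made by the authors with Trim Galore, STAR and HTSeq on hg38, per the submitters' processing notes. Annotation release and strand setting: not given in the sources used here. The 5 lines that name no gene were left out; reads in no exon were 7.77% to 11.7% of reads and ambiguous reads 8.99% to 10.1%. All 58735 gene IDs matched GENCODE 29, which gave symbols, places and exon lengths. Genes were filtered with filterByExpr (minimum count 10), scaled by TMM and fitted with edgeR 4.0.16 (quasi-likelihood test, R 4.3.3) over 6 libraries, with Benjamini-Hochberg adjustment over 17520 genes and a threshold of 0.05. CPM used TMM-scaled library sizes. Alternatives were other scalings and filters, DESeq2 1.42.0, limma-voom (limma 3.58.1), a replicate block, a null fold of 1.2, removal of the length trend, the share of reads in no exon as a covariate and each library left out. The fit was tested on simulated data with known changes. It called 61.5% of genes changed by a log2 of 0.5, 79.4% at 1 and 100% at 2, with 9 false calls. Genes that did not pass may therefore still have changed by a small amount. The members and gene lists were chosen with earlier results of these data known. Per pathway list, the text names at most 4 called genes, taken by size of log2 fold change; lists with 0 or 1 call give their 2 most abundant genes. GRB2, DGKH, KSR1, KSR2, CCNH and EVI2A fall outside this rule and were named after their values were seen. Some pathway genes are not reported here and are not counted in the lists. Correction for base composition was not run, since no genome was used here.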

Additional observations from a re-analysis of the deposited data

How the results depend on the processing

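Against a null fold of 1.2, 758 genes rose and 698 fell, 3 of the 10 genes rose and 2 fell, and 10 pathway genes rose and 1 fell. With the share of reads in no exon as a covariate, 858 genes rose and 1262 fell. Of the 10 genes 2 rose and 2 fell, and of the pathway genes 9 rose and 9 fell. Among the genes whose log2 fold changes reversed were NF1 (-0.13) and CBL (-0.11). The cause was not tested. Leaving out 1 library gave 1650 to 3218 rising and 1817 to 3562 falling genes, 5 to 6 rises among the 10 genes, and 15 to 24 rising and 3 to 10 falling pathway genes.

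Per kilobase of the longest coding transcript, shCtrl levels were 3.73 for RASAL1, 16.6 for RASAL3, 13.4 for RASA1, 11.6 for RASA2, 21.8 for RASA3, 9.0 for NF1, 38.5 for RASGRP1 and 8.75 for SOS2, since the length is shorter. With a replicate block, 2783 genes rose and 3120 fell, with 6 and 3 among the 10 genes and 23 and 9 among pathway genes. After each gene's group mean was subtracted, same-numbered libraries of the 2 groups correlated at 0.4, 0.23 and -0.04 over 6761 well-expressed genes. Pairs of unlike number lay between -0.34 and 0.08, so replicates 1 and 2 were above all of these and replicate 3 was not. The numbers are not taken to pair the samples. RASAL2 lies below what this depth can resolve.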
